A study of Mus musculus with 16 samples.

Results

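The AP-1 and BATF family described here was a set of 10 genes chosen by name, out of 21938 protein-coding genes of GENCODE release M21 for mouse build GRCm38. They were Fos, Fosb, Fosl1 and Fosl2 (FOS proteins), Jun, Junb and Jund (JUN proteins), Batf and Batf3 (BATF proteins) and Atf3. Chromatin that a transposase could enter had been mapped by ATAC-seq in 16 libraries of mouse T cells. They form 4 groups of 4 libraries, WT TE and WT TM with the wild-type genotype and TPdh-/- TE and TPdh-/- TM with the knockout. TE are effector and TM memory T cells. The study's general culture method activated OT-I cells, CD8 T cells whose receptor recognizes an ovalbumin peptide, and then kept them in IL-2 for TE or IL-15 for TM, but the labels of these libraries give neither the receptor nor the CD8 state. WT libraries carried the genotype labelled TPdh+/+. TPdh-/- cells were made to lack the pyruvate dehydrogenase complex by crossing a floxed Pdha1 to a Cre transgene under Cd4 control, which is active in CD4 and CD8 T cells alike and from the thymus on. Young adult mice of both sexes were used in the study. The labels do not tell whether the 4 libraries of a group came from separate mice or cultures, so the p-values below measure the spread between these libraries, which may be technical.

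AP-1 is a dimer of leucine zipper proteins. FOS proteins cannot pair with each other and take a JUN partner, JUN proteins also pair with each other or with ATF proteins, and the dimers bind the short palindrome TGANTCA, in which N is any base. BATF proteins lack the activating domain of FOS, pair with JUN proteins and bind beside IRF4 in T cells. Fos, Fosb, Jun and Junb are immediate early genes, switched on within minutes of receptor signaling, and Batf is needed for the expansion of effector CD8 T cells.

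The lists held 645567 peaks in all, 2290 to 19234 per library in WT TE, 32906 to 78635 in TPdh-/- TE, 13304 to 54892 in WT TM and 60189 to 86637 in TPdh-/- TM. Fold enrichment is the authors' ratio of fragments at a peak's summit to the local background. Together with the deposited p-value it fixes the number of fragments at the summit and the local background. Background coverage, the 1st percentile of the local background (fragments per base) at a library's peaks, was 1.18 ± 0.406 (SD, n = 4) in WT TE, 0.324 ± 0.130 in TPdh-/- TE, 0.411 ± 0.107 in WT TM and 0.224 ± 0.0309 in TPdh-/- TM, and every TPdh-/- library lay below every WT library of the same cell type. The weakest peak of a list had 5 to 9 fragments in WT TE and 3 to 5 in the other groups. WT TE libraries thus stood apart, with the highest background coverage and, except for replicate 2, fewer peaks than any library of another group, and depth and group cannot be told apart. Nor can a site open in more cells be told apart from one more open in each cell. Pdha1 itself had a peak in 1 library each of WT TE and WT TM, 2 of TPdh-/- TE and 3 of TPdh-/- TM, which says nothing about the deleted exon. Each of the 8 T cell marker genes that could be looked up had a promoter peak in 2 to 8 libraries. Of the B cell markers 3 of 5 had one, in at most 2 libraries, of the myeloid markers 3 of 5, in at most 4, and of the erythroid markers 1 of 3, in 1. Cd4, which CD8 T cells silence, had none in any library, and Zbtb7b, the factor of the helper lineage, had one in 3. With peaks anywhere in the gene or 5000 bp to each side, T cell markers were found in 4 to 11 libraries, Cd4 in 10, Zbtb7b in 6, B cell markers in 4 to 13 (Pax5 in 13), myeloid markers in 2 to 11 (Itgam in 11, Csf1r in 10) and erythroid markers in 2 to 4. The part of other cells in the results was not tested.

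A library is said below to hold a gene if it had at least 1 peak inside the gene body or within 5000 bp of its ends. The 10 members had 123 peaks, with a median of 6 fragments at the summit and a range of 3 to 24, and 55 of the summits lay within 1000 bp of a transcription start of the member. Summits with 10 or more fragments were found in 24 peaks, 15 of them among the 19 peaks of WT TE. Over all pairs of a member and a library, 84 of 160 (52.5%) had a peak, against 46.5% for all protein-coding genes. Split by group, 16 of 40 pairs had one in WT TE (40%, against 27.7% of all genes), 19 of 40 in TPdh-/- TE (47.5%, against 53.2%), 20 of 40 in WT TM (50%, against 41.1%) and 29 of 40 in TPdh-/- TM (72.5%, against 63.9%). Promoters, taken as 1000 bp around a start, had a peak in 52 of 160 pairs (32.5%), against 20.3% for all genes. Members held by a library ranged from 1, in TPdh-/- TE replicate 2 and in WT TM replicate 3, to 8, in TPdh-/- TM replicates 1 and 4.

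**Figure D1:**
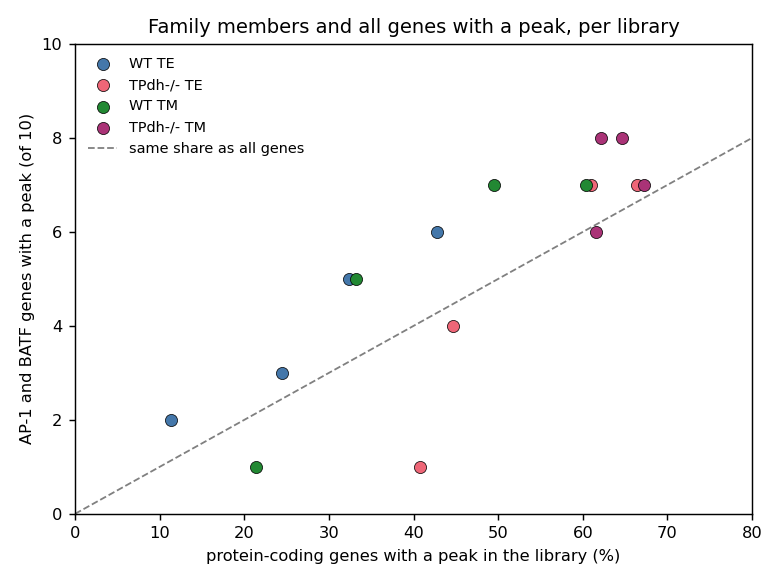
Number of the 10 AP-1 and BATF genes with a peak in the gene or 5000 bp to each side (vertical axis) against the percentage of all protein-coding genes with such a peak (horizontal axis), 1 point per library, colored by group. The dashed line marks an equal share. The 4 TPdh-/- TM libraries lie at the upper right with 6 to 8 members, and the 4 WT TE libraries lie above the line with 2 to 6.

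Jun had a peak in 11 of 16 libraries, Junb and Batf in 10, Fos in 9, Fosb, Fosl2, Jund and Atf3 in 8, Batf3 in 7 and Fosl1 in 5. Counted at promoters the order changed, and Jun (11 libraries) was followed by Fos (8), Junb (7), Jund and Batf (6), Fosb (5), Fosl2 (4), Atf3 (3), Batf3 (2) and Fosl1 (0). A promoter peak in at least 11 libraries was found for 4.43% of all protein-coding genes, and one in at least 8 for 14.2%. Neighbors in these orders were at most 3 libraries apart, and no test of the order was made. Window length also varied, from 11668 bp for Jund to 57744 bp for Atf3, so presence in a window is not comparable between members.

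**Figure D2:**
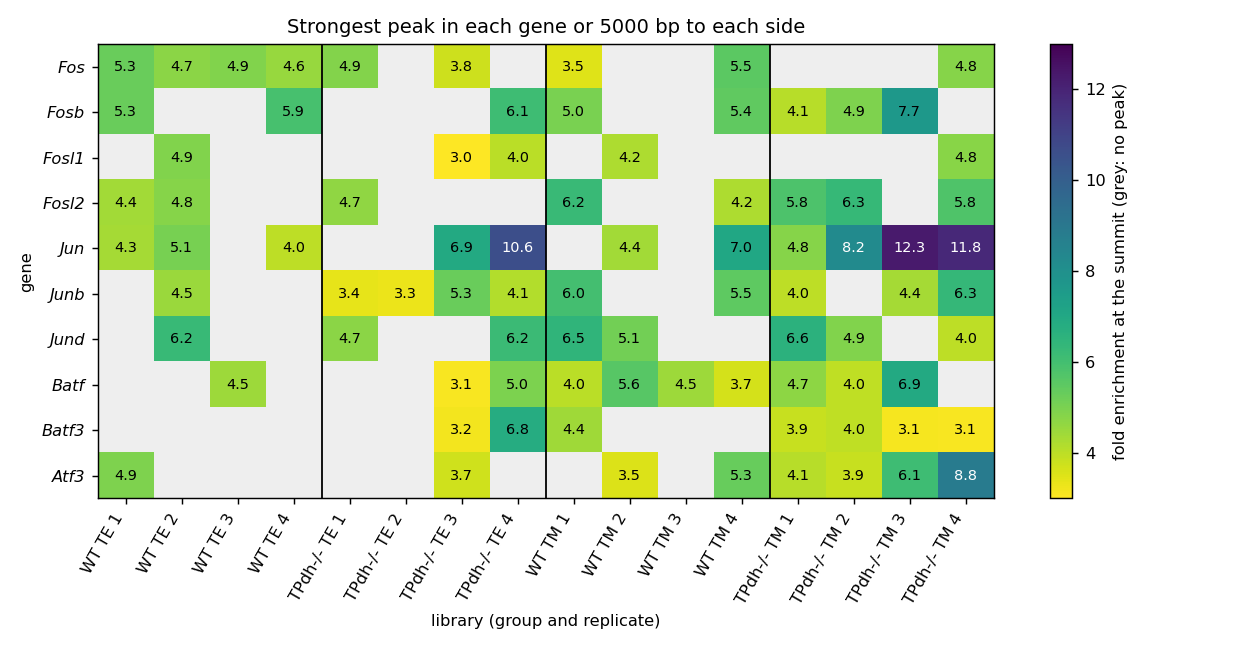
Fold enrichment of the strongest peak of each member (rows) in each of the 16 libraries (columns, ordered by group and replicate). Grey cells have no peak. Fos is filled in all 4 WT TE libraries at 4.56 to 5.27, Jun in all 4 TPdh-/- TM libraries at 4.80 to 12.3, and Batf3 in no WT TE library.

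In TPdh-/- TM against WT TM, which asks what loss of the complex changes in memory cells, no member was held by 4 libraries of a group and 0 of the group it was set against, a pattern that 1.24% of the 20443 genes tested showed. The comparisons that follow share groups and are not independent of each other. In strength, the log2 fold enrichment of a gene's strongest peak with 0 where there was none, no member had groups that did not overlap, against 2.92% of genes. More TPdh-/- than WT libraries held 7 members and fewer held 2. By strength, 77.9% of all genes tested were higher in TPdh-/- TM and 22.1% were lower. The median difference of the 10 members was 0.56 on the log2 scale and that of all genes tested was 0.52. In TPdh-/- TE against WT TE, no member was separated by presence (3.63% of 19202 genes) or by strength (6.34%). The median difference of the members was 0.13, against 0.58 for all genes. In WT TM against WT TE, none was separated by presence (1.48% of 17982 genes) or by strength (3.69%), with medians of 0.28 and 0.50. In TPdh-/- TM against TPdh-/- TE, none was separated by presence (0.508% of 20675 genes) and 1, Atf3, by strength (2.5%), with medians of 0.73 and 0.28. After adjustment over all genes no member, and no gene at all, had p under 0.05, whether presence was tested (Fisher's exact test) or strength (exact permutation test). With 4 libraries against 4 the smallest p either allows is 0.0286 (exact), which 517 to 1218 genes reached by strength and 105 to 697 by presence. The lowest adjusted p of a member was 0.589 (exact permutation test on strength, Benjamini-Hochberg over all genes tested).

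Fos (ENSMUSG00000021250.13, chr12:85473890-85477273, plus strand), whose transcription is the classic readout of an immediate early response, was the member that all WT TE libraries held. Its fold enrichment was 5.27, 4.73, 4.88 and 4.56 in WT TE replicates 1 to 4, with 14, 8, 17 and 17 fragments. The 4 summits lay close together, 259, 273, 276 and 233 bp before the start. Together with peaks of 1 library of each other group they formed a merged region at chr12:85473550-85473903. Of all protein-coding genes, 3.43% had a promoter peak in all 4 WT TE libraries and 5.16% were held by all 4. In TPdh-/- TE, Fos had a promoter peak only in replicate 1, with a fold of 4.86 and its summit 83 bp before the start, and in replicate 3 weak peaks 4737 bp before and 5406 bp beyond a start (folds 3.54 and 3.76). WT TM replicate 1 had a fold of 3.50 (4 fragments) at 101 bp before the start, WT TM replicate 4 a fold of 5.50 in the coding exon, 160 bp past an internal start, and TPdh-/- TM replicate 4 a fold of 4.82 at 250 bp before the first start. No peak was called at Fos in the other 7 libraries. Mean strength was 2.28 ± 0.09 in WT TE and 1.05 ± 1.22 in TPdh-/- TE (SD, n = 4 each), a difference of -1.23 (exact permutation p = 0.0857, adjusted 0.589). The values overlapped through TPdh-/- TE replicate 1, and without it the difference was -1.64 and the groups did not overlap (exact permutation p = 0.0286). Without TPdh-/- TE replicate 2 or 4 the difference was -0.88 (exact permutation p = 0.0857). Since replicate 1 is the library that caused the overlap, the lower p without it follows from that choice and is not a test result. The same holds below wherever leaving out 1 library, or dropping its peak, ended an overlap. Lists of equal length gave -0.57 and peaks with a −log10 q of at least 5 gave 0 (exact permutation p = 1 for both), and among libraries with a peak the difference was -0.18. WT TM, at 1.07 ± 1.26, lay -1.21 from WT TE (exact permutation p = 0.143, adjusted 0.878), and without WT TM replicate 4 -1.68 from it (exact permutation p = 0.0286). Without WT TM replicate 2 or 3 the difference was -0.86 (exact permutation p = 0.143), among libraries with a peak -0.15, in lists of equal length -0.57 and at −log10 q of at least 5 it was 0 (exact permutation p = 1 for both lists). The direction at Fos is opposite to the median of all genes in both comparisons.

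The sequence under the WT TE summits at Fos is shown because it carries the CArG box, the site of serum response factor through which growth and receptor signals reach this promoter. The 300 bases are from the RefSeq sequence of GRCm38, chr12:85473576-85473875, plus strand, and end before the Fos start at base 85473890. This site, and those of the other members except Jun, were chosen after the peaks were seen. Capitals mark the CArG box, whose first base is 309 bp before the start.
Fos: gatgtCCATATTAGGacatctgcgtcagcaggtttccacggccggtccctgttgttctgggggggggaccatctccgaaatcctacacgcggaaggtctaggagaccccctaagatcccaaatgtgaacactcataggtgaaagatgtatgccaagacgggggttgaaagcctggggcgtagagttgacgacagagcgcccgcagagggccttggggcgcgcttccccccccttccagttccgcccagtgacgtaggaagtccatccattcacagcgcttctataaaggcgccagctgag
The 4 WT TE summits lay 45, 31, 28 and 71 bp past the middle of this box. The summit of TPdh-/- TM replicate 4 lay 54 bp past it, and those of TPdh-/- TE replicate 1 and WT TM replicate 1 lay 221 and 203 bp past it.

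Fosb (ENSMUSG00000003545.3, chr7:19302696-19310051, minus strand), also an immediate early gene, had peaks in 2 libraries each of WT TE and WT TM, in 1 of TPdh-/- TE and in 3 of TPdh-/- TM. The strongest had folds of 5.30 and 5.90 in WT TE replicates 1 and 4, 6.12 in TPdh-/- TE replicate 4, 5.01 and 5.45 in WT TM replicates 1 and 4, and 4.08, 4.93 and 7.66 in TPdh-/- TM replicates 1 to 3. They were not at 1 place. Those of WT TE and TPdh-/- TE fell in a region beyond the end of Fosb that 4 libraries held (chr7:19300817-19301238), 142 bp from the start of another gene, Gm26802. A region just before the Fosb start (chr7:19310077-19310438) was held by 1 library each of WT TE, TPdh-/- TE and WT TM, with folds of 5.45 to 5.92. It too contains a CArG box, 266 bp before the start. The 30 bases around it are on the minus strand at chr7:19310297-19310326.
Fosb: ggccgagctCCTTATATGGctaattgcgtc
The summits of TPdh-/- TE replicate 4 and WT TM replicate 4 lay 39 bp past and 35 bp before the middle of that box, and that of WT TE replicate 4 lay 193 bp past it. In the 250 bases before RefSeq starts the CArG box was present at 1.47% of 32851 promoters. None of the 9 members with an entry, all but Fosl1, had one there, and the boxes of Fos and Fosb lie farther out.

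Fosl1 (ENSMUSG00000024912.6, chr19:5447547-5455946, plus strand) and Fosl2 (ENSMUSG00000029135.10, chr5:32135801-32157842, plus strand), whose proteins lack the strong activating domains of FOS, were held by 5 and 8 libraries. Fosl1 had no promoter peak in any library. Of its 6 peaks, those of TPdh-/- TE replicate 4 (fold 4.02) and TPdh-/- TM replicate 4 (fold 4.76) with summits beyond its end lay 340 and 77 bp from the start of the neighboring Ccdc85b. At Fosl2 a peak spanned the first start in WT TE replicates 1 and 2, with folds of 4.38 and 4.82 and summits 20 and 26 bp before it. WT TM replicate 1 had a fold of 6.22 with its summit 193 bp before that start. In TPdh-/- TM its strongest peaks were elsewhere, beyond the end of the gene in replicates 1 and 2 (folds 5.79 and 6.32) and 727 bp before a start in replicate 4 (fold 5.75). Strength of Fosl2 in TPdh-/- TM lay 1.37 above TPdh-/- TE, which held it in 1 library (1.93 ± 1.29 and 0.56 ± 1.11, SD, n = 4; exact permutation p = 0.143, adjusted 1). Without TPdh-/- TM replicate 3, which had no peak, the difference was 2.02 and the groups did not overlap (exact permutation p = 0.0571). With a flank of 1000 bp it was 0.68 (exact permutation p = 0.429), at promoter summits 0.63 and in lists of equal length 0 (exact permutation p = 1 for both). Among libraries with a peak it was 0.35. The start region held the AP-1 palindrome TGACTCA, 53 bp past the first base of Fosl2. It is shown in capitals within 30 bases of the plus strand at chr5:32135842-32135871.
Fosl2: gtgccattgtagTGACTCAtctcgggcaga
The summits of WT TE replicates 1 and 2 and of WT TM replicate 1 lay at -76, -82 and -249 bp from the middle of this palindrome, on its upstream side.

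Jun (ENSMUSG00000052684.4, chr4:95049034-95052222, minus strand), a partner that FOS and BATF proteins share, had the most recurrent promoter of the family. Its promoter region, chr4:95051983-95052792, was held by 11 libraries, more than any other of the 74 merged regions in the members' windows, with 5 to 24 fragments at the summit. In TPdh-/- TM all 4 libraries held it, with folds of 4.80, 8.22, 12.3 and 11.8 in replicates 1 to 4. Of all genes, 6.12% had a promoter peak in all 4 TPdh-/- TM libraries, and 4.73% had that and one in at most 2 WT TM libraries. WT TM held it in 2 libraries, at 4.38 in replicate 2 and 7.03 in replicate 4. Replicates 3 and 4 of TPdh-/- TE had folds of 6.92 and 10.6, and replicates 1 and 2 had no peak at Jun. WT TE replicates 1, 2 and 4 had folds of 4.34, 5.01 and 3.99 there, with 15, 11 and 16 fragments, and replicate 3 had none. The 3 highest folds, in TPdh-/- TM replicates 3 and 4 and TPdh-/- TE replicate 4, rested on 24, 23 and 20 fragments and lay at the 99.9, 99.7 and 99.5 percentile of their libraries by −log10 q.

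Mean strength at Jun was 3.12 ± 0.63 in TPdh-/- TM and 1.24 ± 1.45 in WT TM (SD, n = 4), a difference of 1.88 (exact permutation p = 0.0571, adjusted 0.838), against a median of 0.52 over all genes. The groups overlapped because the fold of WT TM replicate 4 exceeded that of TPdh-/- TM replicate 1. Without WT TM replicate 4 the difference was 2.41 (exact permutation p = 0.0286), and without TPdh-/- TM replicate 1 it was 2.17 with groups that did not overlap (exact permutation p = 0.0571). Without WT TM replicate 1 or 3 it fell to 1.47 (exact permutation p = 0.114). Lists of equal length and −log10 q of at least 5 each gave 1.85 (exact permutation p = 0.143). Among libraries with a peak only, the difference in mean was 0.65. In TE the means were 1.55 ± 1.81 in TPdh-/- and 1.61 ± 1.08 in WT, which differed by -0.07 (exact permutation p = 1). TPdh-/- TM lay 1.57 above TPdh-/- TE (exact permutation p = 0.2, adjusted 1).

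The 250 bases before the Jun start hold the motif through which JUN is known to act on its own gene, a variant of the AP-1 palindrome with 1 more base, and are shown for that reason. They are from RefSeq GRCm38, chr4:95052223-95052472, minus strand, and capitals mark TGACATCA, whose first base is 45 bp before the start.
Jun: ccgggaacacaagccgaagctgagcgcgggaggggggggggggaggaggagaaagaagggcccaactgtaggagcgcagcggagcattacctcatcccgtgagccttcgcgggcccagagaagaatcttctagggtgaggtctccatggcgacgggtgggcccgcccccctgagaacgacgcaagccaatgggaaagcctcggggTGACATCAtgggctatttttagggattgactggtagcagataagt
The summits of the 11 libraries lay at -472 to -78 bp from the start, on the upstream side of this motif in each. A match to TGANNTCA, which includes TGACGTCA, was present in these 250 bases in 2 of the 9 members with a RefSeq entry, Jun and Jund, and in 11.9% of all 32851 promoters. RefSeq places the Jund start upstream of the GENCODE one, so the match at Jund lies in another stretch than the site described below. TGACGTCA was in none of the 9, against 1.55% of all promoters. TGANTCA itself was in none of the 9, against 6.75% of all promoters. A further region in the coding exon of Jun (chr4:95050343-95051199) was held by WT TE replicate 2 and by TPdh-/- TM replicates 2, 3 and 4, with folds of 3.92 to 6.79, and the start of the antisense gene Junos was 789 bp from the median of its summits.

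**Figure D3:**
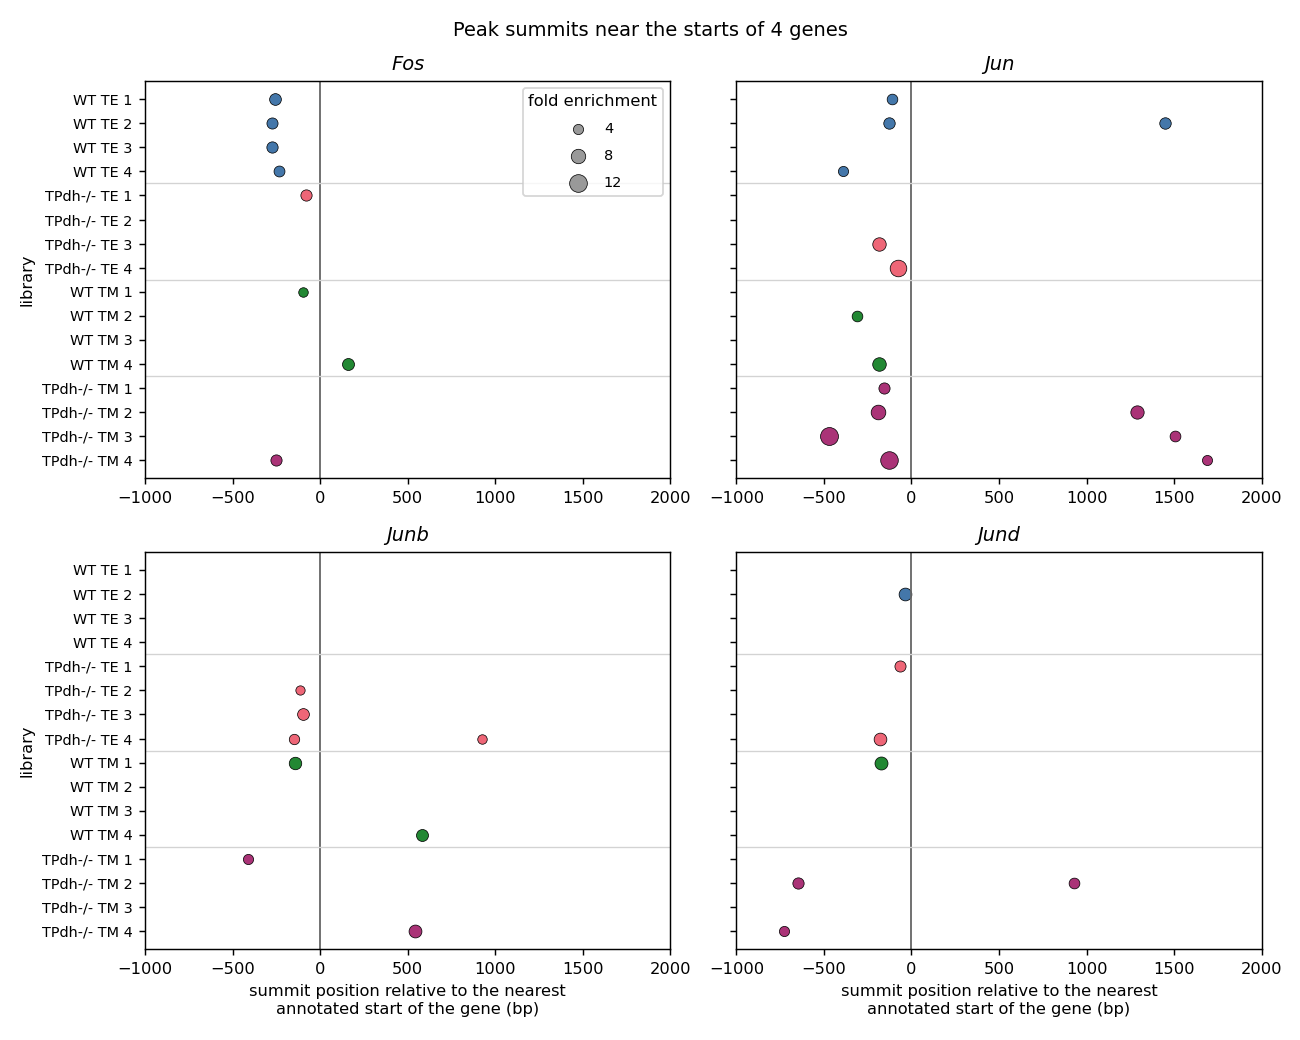
Positions of peak summits relative to the nearest annotated start of Fos, Jun, Junb and Jund (horizontal axis, bp, upstream to the left), 1 row per library, with the area of a point in proportion to fold enrichment. At Fos the 4 WT TE summits lie between 276 and 233 bp before the start, and at Jun the summits of 11 libraries lie between -472 and -78 bp from it.

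Junb (ENSMUSG00000052837.6, chr8:84974484-84978718, minus strand), which is induced with Fos and in T cells also pairs with BATF, was held by all 4 TPdh-/- TE libraries with folds of 3.39, 3.31, 5.30 and 4.15 in replicates 1 to 4 and by 1 WT TE library, replicate 2, with 4.52. The places differed. The summits of TPdh-/- TE replicates 2, 3 and 4 lay 114, 101 and 149 bp before the second of its annotated starts, in an intron of the longer transcript. Those of TPdh-/- TE replicate 1 and WT TE replicate 2 lay beyond the end of Junb, 254 and 101 bp from the start of Prdx2. Mean strength was 1.99 ± 0.32 in TPdh-/- TE and 0.54 ± 1.09 in WT TE (SD, n = 4), a difference of 1.44 (exact permutation p = 0.114, adjusted 0.589). Without WT TE replicate 2 it was 1.99 and the groups did not overlap (exact permutation p = 0.0286). The fold of the only WT TE library lay inside the TPdh-/- TE range, and among libraries with a peak the sign turned to -0.19. Lists of equal length and peaks with a −log10 q of at least 5 each gave 0 (exact permutation p = 1), since no library of either group then held Junb. Of all genes, 20.1% were held by all 4 TPdh-/- TE libraries. WT TM held Junb in replicates 1 and 4 (folds 5.98 and 5.50) and TPdh-/- TM in replicates 1, 3 and 4 (folds 4.01, 4.35 and 6.33).

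Jund (ENSMUSG00000071076.6, chr8:70698949-70700616, plus strand), the JUN gene that resting cells express, had a promoter region held by 6 libraries (chr8:70698054-70699064). Folds there were 6.25 in WT TE replicate 2, 4.74 and 6.20 in TPdh-/- TE replicates 1 and 4, 6.46 in WT TM replicate 1 and 4.89 and 3.99 in TPdh-/- TM replicates 2 and 4. WT TM replicate 2 and TPdh-/- TM replicate 1 had peaks only beyond the end of the gene (folds 5.13 and 6.57). All 4 groups overlapped, and the 4 differences in mean strength lay between 0.49 and 0.60 (exact permutation p of 0.657 to 1). This region contains TGACGTCA, the cAMP response element bound by CREB and by JUN-ATF dimers, 214 bp before the start. It is in capitals within 30 bases of the plus strand at chr8:70698724-70698753.
Jund: ccccacccccaTGACGTCAacccacaatgc
Summits of TPdh-/- TE replicate 4 and WT TM replicate 1 lay 30 and 36 bp past the middle of it, and those of WT TE replicate 2 and TPdh-/- TE replicate 1 lay 171 and 145 bp past it. The summits of TPdh-/- TM replicates 2 and 4 lay farther upstream, at -650 and -728 bp from the Jund start.

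Batf (ENSMUSG00000034266.6, chr12:85686669-85709087, plus strand), which pairs with JUN proteins and is required in activated CD8 T cells, was held by all 4 WT TM libraries, as 9.30% of all genes were, with folds of 4.04, 5.60, 4.45 and 3.66 in replicates 1 to 4. Only WT TE replicate 3 held it in WT TE, with a fold of 4.46 and 13 fragments at 6 bp past the start. The strongest WT TM peaks were in the promoter in replicate 1 (142 bp before the start) and in the intron in replicates 2, 3 and 4 (6874, 6412 and 6307 bp past a second start inside the gene). A region of that intron, chr12:85695393-85695804, was shared by replicates 3 and 4. Mean strength was 2.13 ± 0.26 in WT TM and 0.54 ± 1.08 in WT TE (SD, n = 4), a difference of 1.59 (exact permutation p = 0.114, adjusted 0.878). Without WT TE replicate 3 it was 2.13 with no overlap (exact permutation p = 0.0286), but in lists cut to the same length the difference was -0.54, since no WT TM library then held Batf. At −log10 q of at least 5 it was 0 and at promoter summits 0.45 (exact permutation p = 1 for both). Among libraries with a peak the sign turned, with a mean of 2.13 in WT TM against 2.16 in WT TE replicate 3. TPdh-/- TE held it in replicates 3 and 4 (folds 3.09 and 4.98) and TPdh-/- TM in replicates 1, 2 and 3 (folds 4.71, 3.96 and 6.93).

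Batf3 (ENSMUSG00000026630.9, chr1:191097847-191108945, plus strand), best known from cross-presenting dendritic cells and also active in memory CD8 T cells, was the only member without a peak in WT TE. All 4 TPdh-/- TM libraries held it, with folds of 3.85, 3.96, 3.14 and 3.09 in replicates 1 to 4, while 34.1% of all genes were held by all 4. The peaks had 4 fragments in replicates 1 and 2, the median of their lists, and 3 in replicates 3 and 4, the fewest called there. Peaks in 2 of them, replicates 1 and 4, overlapped, in an intron. WT TM replicate 1 had a fold of 4.43 at 2006 bp before a start, and TPdh-/- TE replicates 3 and 4 had folds of 3.18 and 6.79. Strength was 1.80 ± 0.19 in TPdh-/- TM and 0.54 ± 1.07 in WT TM (SD, n = 4), a difference of 1.27 (exact permutation p = 0.143, adjusted 0.838). Without WT TM replicate 1, or with a flank of 1000 bp, which drops its peak, the difference was 1.80 with 4 of 4 libraries against none (exact permutation p = 0.0286). Among libraries with a peak the sign turned, to -0.34. In lists of equal length and at −log10 q of at least 5 no library of either group held Batf3, and the difference was 0 (exact permutation p = 1 for both).

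Atf3 (ENSMUSG00000026628.13, chr1:191170296-191218039, minus strand), a stress-induced partner of JUN that often represses, was held by all 4 TPdh-/- TM libraries, with folds of 4.06, 3.85, 6.10 and 8.84 in replicates 1 to 4. TPdh-/- TE held it in replicate 3 with 3.74, below each of these, WT TM in replicates 2 and 4 with 3.52 and 5.34, and WT TE in replicate 1 with 4.92. Strength in TPdh-/- TM exceeded that in TPdh-/- TE by 1.95 (2.43 ± 0.56 and 0.48 ± 0.95, SD, n = 4; exact permutation p = 0.0286, adjusted 1) and that in WT TM by 1.37 (exact permutation p = 0.114, adjusted 0.838). Without WT TM replicate 4 the latter was 1.83 with no overlap (exact permutation p = 0.0286). Among libraries with a peak the differences were 0.53 and 0.31. The strongest peaks of the 4 TPdh-/- TM libraries were at 4 different places of a 57744 bp window. Near the internal start of Atf3, summits 58 bp before it in replicate 3 and 28 bp past it in replicate 4 fell in 1 region (chr1:191182902-191183646). At −log10 q of at least 5 the difference from TPdh-/- TE was 1.44 with groups that overlapped (exact permutation p = 0.429). Lists of equal length gave 0.79 (exact permutation p = 1) and promoter summits 1.27 (exact permutation p = 0.429). Against WT TM the same 3 settings gave 1.44 (exact permutation p = 0.429), 0.79 (exact permutation p = 1) and 0.74 (exact permutation p = 0.429). An intronic region, chr1:191193616-191193923, was shared by WT TE replicate 1 and WT TM replicate 4 and contains the palindrome TGACTCA. It is in capitals in 30 bases of the minus strand at chr1:191193788-191193817.
Atf3: aggaaacagggTGACTCAggtggaacactg
The summits of the 2 libraries lay 44 bp before and 26 bp past its middle.

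Whether the genotype effect on strength differed between TM and TE was tested over all 16 libraries. The largest differences were 1.95 for Jun (permutation p = 0.136, adjusted 0.605) and 1.47 for Atf3 (permutation p = 0.131, adjusted 0.605), and no member had a permutation p under 0.05, against 10.3% of the 20948 genes tested. The test permutes residuals, which spread less than the values they come from, so it returns low p-values too often. The 10.3% is therefore not a share of genes with such a difference. Of the 74 merged regions in the windows, 54 were held by 1 library, 14 by 2 or 3 and 6 by at least 4. Regions held by at least 4 libraries made up 8.11% of these and 1.76% of all 525048 regions. These shares are not matched. The 525048 regions span the whole genome, while the 74 lie only in genes or 5000 bp to each side, where starts are more frequent. The 6 were the promoter regions of Fos, Jun and Jund, the exon region of Jun, the region at the second Junb start (chr8:84975597-84976764) and the Gm26802 region in the Fosb window.

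Other genes of the pathway were counted next. Of 53 genes in 5 lists (22 other leucine zipper factors, 5 partners of AP-1, 14 kinases and factors upstream, 6 other immediate early genes and 6 targets), more TPdh-/- TM than WT TM libraries held 34 and fewer held 6, with a median difference in strength of 0.46, against 0.52 for all genes. By strength, 77.9% of all genes tested were higher in TPdh-/- TM than in WT TM. None of the 53 was separated by presence in this comparison, and 1, Maff, was by strength. Strength at Maff, a small MAF protein, was 1.45 ± 0.97 in TPdh-/- TM and 2.27 ± 0.26 in WT TM (difference -0.83). In TE, 2 of 53 were separated, both held by 4 of 4 TPdh-/- and 0 of 4 WT libraries. They were Nr4a1, an orphan receptor induced by antigen (2.06 ± 0.36), and Il2ra, the alpha chain of the IL-2 receptor (2.28 ± 0.28). Maf was higher in WT TM than in WT TE (2.26 ± 0.25 and 0.49 ± 0.99) and Map2k1, a kinase of the ERK cascade, in TPdh-/- TM than in TPdh-/- TE (2.40 ± 0.31 and 0.99 ± 1.15). Each of these 5 had an exact permutation p of 0.0286 and an adjusted p of 0.450 to 1. Over all genes tested, 2.92%, 6.34%, 3.69% and 2.5% were separated by strength in the 4 comparisons, in the order used here. No partner of AP-1 (Irf4, Irf8, Nfatc1, Nfatc2 and Nfatc3) was separated in any comparison.

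The motif that the family binds was then looked for at all peaks. TGANTCA, a palindrome and so the same on both strands, lay within 100 bp of the summit at 4.39% ± 1.09 of peaks in WT TE, 5.42% ± 0.154 in TPdh-/- TE, 4.90% ± 0.288 in WT TM and 5.50% ± 0.0910 in TPdh-/- TM (SD, n = 4). The share was higher in all 4 TPdh-/- TM than in all 4 WT TM libraries, by 0.601 percentage points (exact permutation p = 0.0286, adjusted over 4 comparisons 0.114). TPdh-/- TE lay 1.03 points above WT TE (exact permutation p = 0.143, adjusted 0.286), WT TM 0.517 above WT TE (exact permutation p = 0.4) and TPdh-/- TM 0.0856 above TPdh-/- TE (exact permutation p = 0.343). Windows of the same length 1000 bp from the summits held it at 5.23% ± 0.341, 5.99% ± 0.0642, 5.97% ± 0.124 and 5.98% ± 0.0651 in the same order of groups. At promoter peaks alone the share was 1.99% to 4.36%, and promoter peaks made up 56.8% ± 20.3 of WT TE lists (SD, n = 4) and 7.70% to 15.4% in the other 12 libraries.

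Away from promoters, more than 1000 bp from any start, the comparisons with WT TE changed sign and the others kept theirs. WT TE had the motif at 8.38% (95% Wilson interval 7.55% to 9.29%), 6.08% (5.69% to 6.49%), 7.59% (5.78% to 9.93%) and 6.29% (5.18% to 7.61%) of distal peaks in replicates 1 to 4. In TPdh-/- TE the shares were 5.35% to 5.80%, in WT TM 4.87% to 5.60% and in TPdh-/- TM 5.60% to 5.89%. Each WT TE library thus lay above each of the other 12, while the lowest TPdh-/- TM and the highest WT TM library were both at 5.60%. Relative to WT TE the difference was -1.50 points for TPdh-/- TE and -1.98 for WT TM, and TPdh-/- TM lay 0.616 points above WT TM (exact permutation p = 0.0286 and adjusted 0.0381 for each of the 3). TPdh-/- TM and TPdh-/- TE differed by 0.132 points (exact permutation p = 0.343). Set against windows 1000 bp away, a comparison chosen after seeing the data, the share at distal summits was higher in all 4 WT TE libraries, by 0.0801 to 3.34 points, and lower in the other 12, with differences of -1.25 to -0.170 points. In WT TE replicate 2, which has the most distal peaks of the 4, the share at the summit was 6.08% and the difference 0.0801 points. Lists of equal length, also chosen after seeing the data, were equal only as whole lists. They held 429 to 843 distal peaks in WT TE and 1542 to 2142 in the other libraries, and their lowest −log10 q ran from 1.33 to 9.96. In the distal peaks of these lists, WT TE held the motif at 6.92% ± 1.25 and TPdh-/- TE at 4.65% ± 0.265 (SD, n = 4; exact permutation p = 0.0286, adjusted 0.0571). There the difference of TPdh-/- TM from WT TM was 1.27 points and no longer passed 0.05 (exact permutation p = 0.0571, adjusted 0.0762), while that of WT TM from WT TE was -3.24 (p = 0.0286 by the same exact test, adjusted 0.0571). In distal peaks with a −log10 q of at least 5, also chosen after seeing the data, WT TE kept the highest mean but its libraries overlapped those of the other groups. Its shares were 9.25%, 7.43%, 3.70% and 5.11% in replicates 1 to 4, from 703, 1360, 189 and 411 peaks, against 4.12% to 5.01% in TPdh-/- TE, 3.38% to 4.48% in WT TM and 4.58% to 5.56% in TPdh-/- TM. In WT TE, windows 1000 bp away held it at 4.34% to 5.29%, below the share at the summits in replicates 1, 2 and 4 and above it in replicate 3. The difference from WT TE was then -1.66 points for TPdh-/- TE (exact permutation p = 0.314, adjusted 0.419) and -2.43 for WT TM (exact permutation p = 0.114, adjusted 0.229), and TPdh-/- TM lay 1.01 points above WT TM (exact permutation p = 0.0286, adjusted 0.114). GC content of the distal summit windows was 45.1% to 49.0% in WT TE and 42.7% to 43.9% in the other libraries, and WT TE had the highest background coverage. The part of both in the motif shares was not tested. The intervals cover counting error only.

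**Figure D4:**
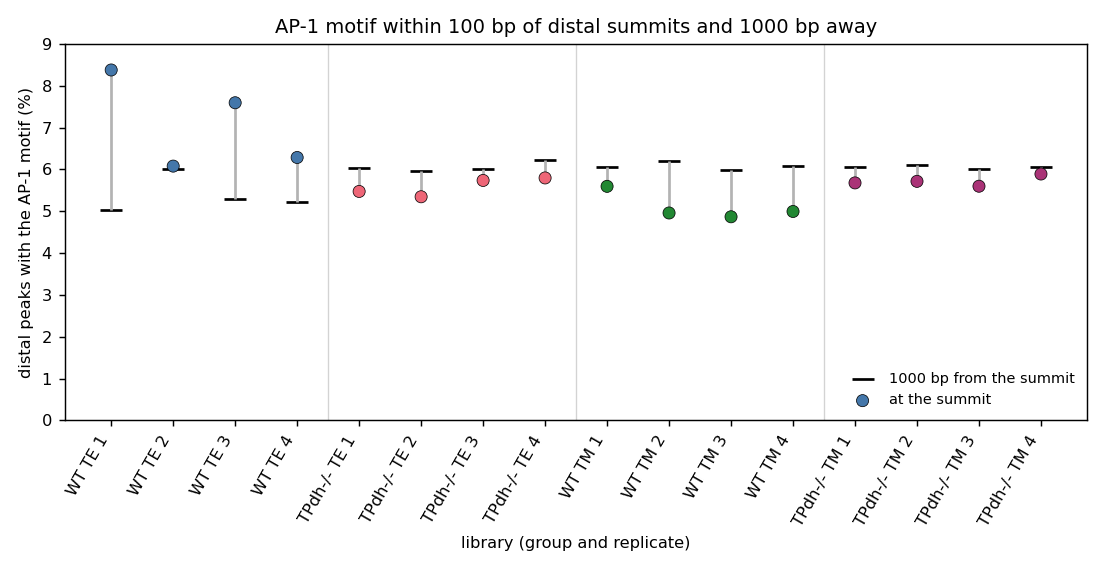
Percentage of distal peaks with TGANTCA within 100 bp of the summit (points, colored by group) and in windows of the same length 1000 bp away (black bars), 1 column per library. In the 4 WT TE libraries the point lies above its bar, and in the other 12 libraries it lies below.

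At the members' own peaks the palindrome was present within 100 bp of 9 of 123 summits (7.32%, against 5.36% of all peaks), namely those of Fosl1, Fosl2, Batf3 and Atf3, and TGACGTCA of 3 (2.44%, against 0.281%), 2 at Jund and 1 at Batf. No summit of Fos, Fosb, Jun or Junb had either. These shares are not matched, since 55 of the 123 member summits lay within 1000 bp of a start, a larger part than in most lists. TGACGTCA lay near 0.764% to 2.49% of summits in the WT TE libraries, which are rich in promoter peaks, and near 0.109% to 0.301% in the other libraries. Both summits at Jund were beside the same element. Over the 16 libraries, the genes whose strength was most like that of Fos were Cks1b (Pearson's r = 0.888), Rpl27a (0.822) and G2e3 (0.814). For Junb they were Fkbp7 (0.970), Lman2 (0.960) and Ulk2 (0.956), and for Batf they were Tm9sf4 (0.800), Lrrc4b (0.766) and Clca1 (0.765). These are descriptions over points that share library depth, picked as the highest of all genes.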

How the data were processed

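ATAC-seq peaks of 16 libraries were used, 4 in each of 4 groups taken from the labels. The authors trimmed reads with Trimmomatic, aligned them to GRCm38 with BWA 0.7.17 and called peaks in each library with MACS2 2.2.7.1 on paired fragments. Caller options beyond paired fragments and the mouse genome size, and any shift for transposase binding were not given in the sources used here. The deposited values per peak are a fold enrichment (a ratio), a −log10 p and a −log10 q, whose lowest value was 1.30. MACS2 adds 1 to both terms of the fold, from which the fragments at a summit were recovered within 0.002 of the deposited −log10 p for at least 99.56% of peaks in each library. The methods state a minimum for sequencing, but the number of reads behind each list is not given in the files.

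Peaks on 21 chromosomes were kept and 81 mitochondrial peaks left out. Python 3.11.15 with numpy 2.4.6, scipy 1.17.1, pandas 2.3.3, pysam 0.24.0 and matplotlib 3.10.9 was used. Presence was tested by Fisher's exact test and strength by a two-sided exact permutation test over 70 arrangements, with Benjamini-Hochberg adjustment over all genes tested. The genotype by cell type term used 100000 permutations of residuals. Scripts were tested on simulated data. Promoter sequences were from RefSeq, which gave 9 of 10 members. All members were described, differences at p under 0.15 were printed, pathway genes were named where groups separated, and the 3 most similar genes were named for Fos, Junb and Batf. Members and lists were chosen with earlier results of these data known. Alternatives were lists of 2290 peaks, −log10 q of at least 5, a flank of 1000 bp, promoter summits only, percentiles, libraries without a peak left out, a replicate block and each library left out.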

Additional observations from a re-analysis of the deposited data

Results flagged for a closer look

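The share of all peaks with TGANTCA near the summit was 5.33% in WT TM replicate 1, far above the other WT TM libraries at 4.74% to 4.78%. In distal peaks, the share at the summit minus that 1000 bp away was -0.170 points in TPdh-/- TM replicate 4, against -0.410 to -0.378 in the other 3 libraries of that group. Both are a single library apart from the rest of its group, and chance sets a library apart in this way in about 1 in 20 groups. In all, 45 groups of values were examined. A further 18, the strength of a member held by 1 or 3 of the 4 libraries of a group, were left out, since there the library apart is simply the one with or without a peak.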

How the results depend on the processing

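Numbers of separated members were small and moved with single libraries. The alternatives were run for the 10 members only, so the share of all genes separated under each is not known. Groups separate more readily with 3 libraries against 4 than with 4 against 4, so the shares given above do not serve for them. Where leaving out a library made a member separated, that library was one that had made the groups overlap. In TPdh-/- TM against WT TM a flank of 1000 bp gave 1 member (Batf3) by presence and 1 by strength in place of 0, and leaving out 1 library gave 0 to 1 by presence (Batf3 without WT TM replicate 1) and 0 to 2 by strength (Jun and Atf3 without WT TM replicate 4, Jun without TPdh-/- TM replicate 1, Batf3 without WT TM replicate 1). In TPdh-/- TE against WT TE it gave 0 to 1 by either (Junb without WT TE replicate 2, Fos without TPdh-/- TE replicate 1), and in WT TM against WT TE 0 to 1 by either (Batf without WT TE replicate 3, Fos without WT TM replicate 4). In TPdh-/- TM against TPdh-/- TE it gave 0 to 1 by presence (Atf3 without TPdh-/- TE replicate 3) and 1 to 2 by strength (Fosl2 and Atf3 without TPdh-/- TM replicate 3), while lists of equal length, −log10 q of at least 5, promoter summits and the replicate block each gave 0 in place of 1. Signs turned for Batf3 (-0.34), Junb (-0.19) and Batf (-0.026) among libraries with a peak, and for Batf in lists of equal length (-0.54, and -25 percentage points by presence). Of the other single-member differences, 10 of 403 by presence and 76 of 463 by strength changed sign and 0 passed 0.05. The motif difference of TPdh-/- TM and WT TM missed 0.05 in distal peaks of equal lists (1.27 points, an alternative chosen after seeing the data) and without any 1 TPdh-/- TM library, over a range of 0.548 to 0.745 for all 8 libraries left out in turn. For TPdh-/- TE against WT TE it passed in lists of equal length (0.972) and turned in distal peaks (-1.50), set against windows 1000 bp away (-2.16), in distal peaks of equal lists (-2.27) and in distal peaks with −log10 q of at least 5 (-1.66, also chosen after seeing the data). For WT TM against WT TE it turned in the same 4 settings (-1.98, -2.67, -3.24 and -2.43). The causes were not tested. Same-numbered libraries correlated at -0.0498 to 0.142, and no comparison had every pair over 0.1, so the numbers were not taken to pair them. The best match was the own number in 4 of 16 pairs, replicates 2, 3 and 4 of TPdh-/- TM against TPdh-/- TE and replicate 3 of WT TM against WT TE. With the replicate block the motif difference of TPdh-/- TM and WT TM was 0.601 points (exact permutation p = 0.125, the smallest that 4 pairs allow). Member peaks had a median of 6 fragments at the summit, and whether depth set these counts was not tested.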
